A study of Mus musculus with 6 samples.

Results

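RYBP and Ring1B binding sites were compared peak by peak in the mouse embryonic stem cell line E14Tg2A, using all 6872 RYBP peaks and all 6982 Ring1B peaks, that is 13854 of the 24662 peaks listed for 4 Polycomb targets. A RYBP and a Ring1B peak were paired when they shared at least 1 bp. The cells, from the 129/Ola strain, were grown without feeders in serum and leukemia inhibitory factor. The labels name no genetic change and no treatment, and the groups are told apart by the antibody used for chromatin immunoprecipitation and sequencing (ChIP-seq), a commercial one for RYBP and one made in the submitters' laboratory for Ring1B. Each target had 1 library, and peak lists hold no expression values against which the cell type could be checked. The lists for Cbx7 (2754 peaks) and Suz12 (8054 peaks) serve below as points of comparison, and 2 libraries made with rabbit IgG were not analysed here.

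Ring1B is the E3 ubiquitin ligase subunit of Polycomb repressive complex PRC1 and places ubiquitin on histone H2A at repressed developmental genes. RYBP binds Ring1B in variant PRC1 complexes and stimulates its ligase activity, whereas Cbx7 belongs to canonical PRC1 and docks on the trimethylated histone H3 written by PRC2, of which Suz12 is a core subunit. RYBP and the Cbx proteins bind the same surface of Ring1B and are not found together in 1 complex. The question addressed here is how the stretch of DNA called for RYBP is placed on the stretch called for Ring1B, and how far the remaining RYBP sites lie from any Ring1B site.

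The lists hold chromosome, start and end on genome build mm9, with no height, score or read count, so depth is unknown. With 1 library per target there is no replicate check and no test between targets. The intervals given are 95% intervals over peaks, by Wilson's method for a share and from order statistics for a median. They treat neighbouring peaks as independent and cover neither the variation between libraries nor a different calling threshold for each list. The labels of the peaks carry the number 5 in the RYBP list and 10 for each of the other 3 targets, with no meaning stated. RYBP may therefore have been called at another setting than the other targets, and that difference cannot be told apart from the antibody in any contrast below of RYBP with Cbx7 or Suz12. Peaks were not assigned to genes.

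Most Ring1B peaks that carried RYBP carried a single RYBP peak. Pairing joined 34.6% of RYBP peaks (2381) to 33.0% of Ring1B peaks (2304) in 2396 pairs. Among paired Ring1B peaks, 2222 held 1 RYBP peak (96.4%, 95.6 to 97.1%), 73 held 2, 8 held 3 and 1 held 4. In the other direction, 2368 of the 2381 paired RYBP peaks touched 1 Ring1B peak, 11 touched 2 and 2 touched 3. Pairs in which each peak had only the other as a partner, called one-to-one below, numbered 2195. Overlaps at the limit of the pairing rule were few: the shortest shared 13, 29, 41, 47 and 64 bp, and the 3 closest unpaired RYBP peaks lay 6, 6 and 19 bp from a Ring1B peak.

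The ordinary layout is shown by the one-to-one pairs closest to the medians of Ring1B width, width ratio and covered share. On chromosome 11 a Ring1B peak from 28482606 to 28484501 (1895 bp) held a RYBP peak from 28483026 to 28484439 (1413 bp), which covered 74.6% of it. That RYBP peak started 420 bp inside Ring1B and ended 62 bp inside. On chromosome 7 a Ring1B peak from 29078948 to 29080773 (1825 bp) held a RYBP peak from 29078984 to 29080330 (1346 bp, 73.8% covered), here with the longer free stretch at the other end. The third pair, also on chromosome 7, joined a Ring1B peak from 119166081 to 119167893 (1812 bp) to a RYBP peak from 119165957 to 119167402 that began 124 bp outside it. All 3 Ring1B peaks overlapped Suz12, on 97.8%, 84.5% and 87.3% of their length, and none overlapped Cbx7.

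**Figure D1:**
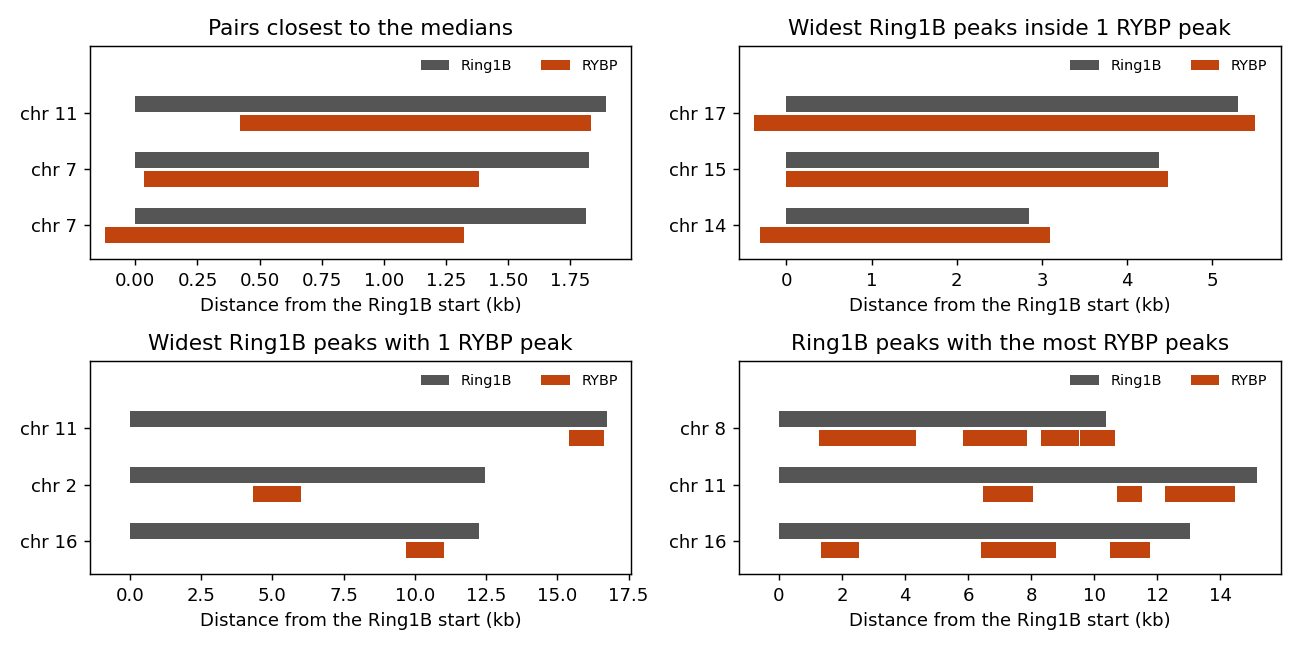
Peak maps of 12 Ring1B peaks (grey) with their RYBP peaks (orange), drawn to scale within each panel as distance in kb from the Ring1B start; each row is 1 Ring1B peak, labelled by chromosome. A RYBP peak of 1346 to 1445 bp fills most of a Ring1B peak of ordinary width, whereas one of 1252 to 1676 bp fills 7.47 to 13.4% of the widest Ring1B peaks with a single RYBP peak.

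RYBP covered a variable part of the Ring1B peak. The median covered share of the 2304 paired Ring1B peaks was 72.8% (70.4 to 74.4%), with quartiles of 50.1 and 94.4%. RYBP covered the whole of 442 Ring1B peaks (19.2%, 17.6 to 20.8%) and less than 25% of 107 (4.64%). Measured the same way on their own partners, Suz12 covered a median of 96.4% of a paired Ring1B peak and Cbx7 81.0%. At least 50% of the peak was covered in 75.2% of the Ring1B peaks paired with RYBP, 94.0% of those paired with Cbx7 and 98.9% of those paired with Suz12. The pairs behind these values take in 92.1% of Cbx7 peaks and 72.4% of Suz12 peaks, far more of each list than for RYBP. Seen from the other side, the median share of a RYBP peak lying inside Ring1B was 99.5% in one-to-one pairs, with a lower quartile of 83.8% and a 5th percentile of 58.4%. In 51.0% of these pairs RYBP reached past Ring1B at 1 end or both. In all, 3.07 Mb was shared, which is 33.3% of the sequence in RYBP peaks and 21.8% of that in Ring1B peaks.

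**Figure D2:**
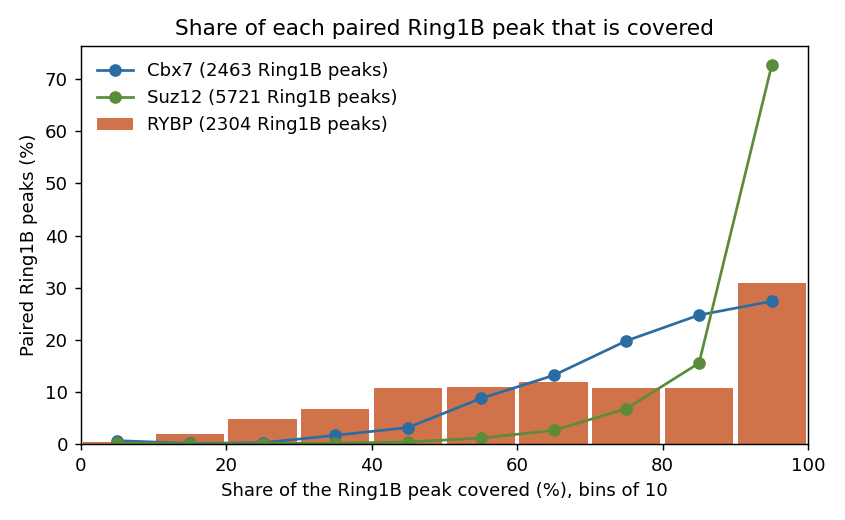
Share of each paired Ring1B peak covered by RYBP (bars), Cbx7 or Suz12 (points joined by lines), in bins of 10 percentage points, as a percentage of the Ring1B peaks paired with that target. For RYBP the top bin holds 31.0% of the Ring1B peaks and each bin between 40 and 90% holds 10.7 to 11.8%, whereas 72.7% of the Ring1B peaks paired with Suz12 lie in the top bin.

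The covered share was lower the wider the Ring1B peak, while RYBP width rose far less than Ring1B width. One-to-one pairs were divided into 5 equal groups of 439 by the width of the Ring1B peak. The median Ring1B width was 873, 1395, 1872, 2470 and 3767 bp from the narrowest to the widest group. The median RYBP width was 1117, 1309, 1361, 1411 and 1437 bp in the same groups. The Ring1B peak was thus 4.32-fold wider in the last group than in the first and the RYBP peak 1.29-fold wider. The ratio of RYBP to Ring1B width had an overall median of 0.77 (0.74 to 0.79) and group medians of 1.33, 0.96, 0.73, 0.57 and 0.37. The median covered share was 100% in the narrowest group, 88.3% in the second, 69.2% in the middle, 56.9% in the fourth and 36.8% in the widest.

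As a description across pairs, which share 2 libraries and are not independent, the rank correlation of RYBP with Ring1B width was 0.30 (Pearson 0.21) over 2195 pairs. The same correlation was 0.83 for Cbx7 over 2117 pairs and 0.90 for Suz12 over 5097 pairs. Within the groups the RYBP correlation was 0.27 for the narrowest Ring1B peaks and between -0.03 and 0.13 in the 4 wider groups. In Suz12 pairs the correlation within the groups lay between 0.33 and 0.85, and in Cbx7 pairs between 0.27 and 0.71. RYBP was the wider partner in 666 of its pairs (30.3%).

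**Figure D3:**
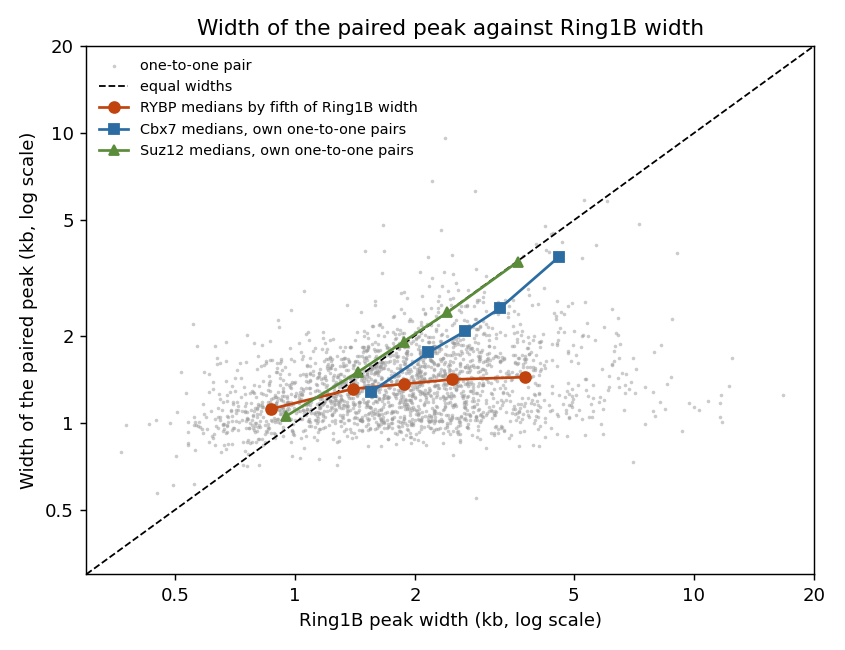
Width of RYBP peaks against the width of their Ring1B partner for 2195 one-to-one pairs (grey points; both axes in kb, log scales), with medians by 5 equal groups of Ring1B width for RYBP, Cbx7 and Suz12, each over its own one-to-one pairs. The Suz12 medians follow the line of equal widths and the Cbx7 medians run parallel below it, whereas the RYBP medians lie between 1117 and 1437 bp across the whole range of Ring1B width.

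The extremes of this range are shown by single peaks. The widest Ring1B peak of a one-to-one pair, on chromosome 11 from 85641900 to 85658660 (16.8 kb), held 1 RYBP peak from 85657298 to 85658550 (1252 bp), 110 bp from its end. On chromosome 2, a Ring1B peak from 38201558 to 38214029 (12.5 kb) held a RYBP peak from 38205895 to 38207571 (1676 bp), and on chromosome 16 one from 18580236 to 18592475 (12.2 kb) held a RYBP peak from 18589916 to 18591254 (1338 bp). These RYBP peaks covered 7.47%, 13.4% and 10.9% of Ring1B, while Cbx7 covered 76.5%, 94.9% and 96.5% and Suz12 98.8 to 99.8%. Wide RYBP peaks also occurred. The widest Ring1B peak lying inside a single RYBP peak was on chromosome 17 from 6474202 to 6479497 (5295 bp), inside a RYBP peak from 6473818 to 6479707 (5889 bp). The next were on chromosome 15 from 91736595 to 91740973 (4378 bp) and on chromosome 14 from 7858717 to 7861566 (2849 bp), inside RYBP peaks of 4487 and 3407 bp. None of these 3 Ring1B peaks overlapped Cbx7, and Suz12 covered 92.8%, 98.8% and 73.1% of them.

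RYBP lay more often over the centre of the Ring1B peak than over its edges. The RYBP midpoint fell between 25 and 75% of the Ring1B width in 1898 of the 2195 one-to-one pairs (86.5%, 85.0 to 87.8%), nearer an edge but still inside in 259 (11.8%) and outside the Ring1B peak in 38 (1.73%). The median position was 48.8% of the Ring1B width from its start, with quartiles of 39.4 and 59.0%. The 2 midpoints were a median of 177 bp apart (quartiles 71 and 377 bp). For Cbx7 98.2% of midpoints fell in the same central zone, with a median distance of 130 bp, and for Suz12 94.8%, with 95.5 bp. The central share of RYBP lay between 85.9 and 90.7% in the 4 narrower groups of Ring1B peaks and was 78.1% (74.0 to 81.7%) in the widest, where the midpoints were 528 bp apart at the median.

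Part of this central position is set by geometry, since a peak nearly as wide as its partner and inside it cannot be far from the centre. For the 1075 RYBP peaks wholly inside Ring1B, position was therefore also measured within the free room, the difference of the 2 widths, which had a median of 1134 bp. RYBP stood in the middle zone of that room, from 25 to 75%, in 598 pairs (55.6%, 52.6 to 58.6%). A position taken evenly along the room would give 50% by definition. The corresponding shares were 54.6% (52.1 to 57.1%) for Cbx7 and 46.6% (43.7 to 49.5%) for Suz12, whose free room was only 236 bp at the median. Measured against the room available, RYBP inside Ring1B was thus spread along it (quartiles of 26.3 and 70.3% of the room), with a slightly larger share in the middle zone than even spacing gives. In the widest group of Ring1B peaks the share was 56.1%, and the nearer edge of Ring1B lay 666 bp from the RYBP peak at the median.

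The 4 possible layouts were all common. RYBP was wholly inside Ring1B in 1075 one-to-one pairs (49.0%, 46.9 to 51.1%). Ring1B was wholly inside RYBP in 429 (19.5%). The peaks were staggered in 691 (31.5%), with RYBP shifted to lower coordinates in 380 and to higher coordinates in 311. Staggered pairs were thus slightly more often shifted to lower coordinates, and the lists carry no strand that would orient them to genes. The layout went with Ring1B width: RYBP was inside in 1.82%, 25.1%, 53.5%, 76.3% and 88.2% of pairs from the narrowest to the widest group, and around Ring1B in 69.0%, 19.4%, 4.78%, 4.10% and 0.46%. This trend is largely set by geometry, since a RYBP peak cannot lie inside a Ring1B peak narrower than itself.

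At the lower end of the Ring1B peak, RYBP started a median of 121 bp inside (quartiles -88 and 576 bp, negative values lying outside). At the upper end it stopped 176 bp inside (quartiles -76 and 612 bp). Where RYBP went past Ring1B it did so by little, 151 bp at the median over 809 lower ends and 143 bp over 740 upper ends. Where it stopped short, the free stretch was 420 bp at the median over 1384 lower ends and 447 bp over 1452 upper ends. Both edges matched within 100 bp in 147 pairs (6.70%) and within 500 bp in 1113 (50.7%). For Suz12 both edges matched within 100 bp in 23.2% of pairs and within 500 bp in 84.9%, and for Cbx7 in 9.12% and 58.7%. RYBP and Ring1B edges thus coincided in few pairs.

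**Figure D4:**
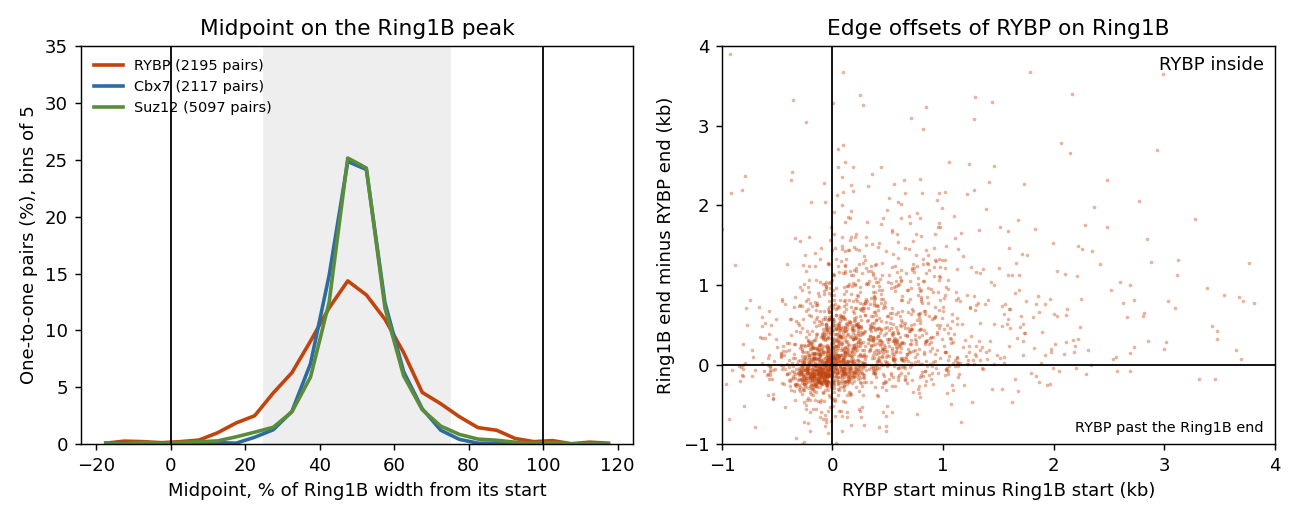
Left, position of the midpoint as a percentage of the Ring1B width from its start, in bins of 5, for one-to-one pairs of RYBP, Cbx7 and Suz12; black lines mark the Ring1B edges and grey the zone from 25 to 75%, which holds 86.5% of RYBP, 98.2% of Cbx7 and 94.8% of Suz12 midpoints. Right, offsets of RYBP from both Ring1B edges in kb, 1 point per pair; positive values lie inside Ring1B, so the upper right quadrant holds the 1075 pairs with RYBP inside, and 70 pairs lie beyond the axes.

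The geometry was also read against the other subunits on the same Ring1B peak. Of all Ring1B peaks 81.9% overlapped Suz12 and 35.3% overlapped Cbx7. Ring1B peaks of one-to-one pairs that overlapped both Suz12 and Cbx7 (734) had a median width of 2863 bp, and RYBP covered 48.3% of them. Those with Suz12 and no Cbx7 (1013) were 1712 bp wide and 77.4% covered. Those with neither (448) were 976 bp wide and 100% covered, and there Ring1B lay wholly inside RYBP in 60.5% of pairs, compared with 14.8% and 1.09% in the other classes. RYBP itself differed little in width over these classes, at 1348, 1307 and 1230 bp. The central share was 85.8%, 87.4% and 85.5%. The classes differed less at like Ring1B width: in the second narrowest group the medians were 78.4% (30 pairs), 86.5% (294) and 93.8% (115), and in the middle group 68.0% (107), 69.1% (298) and 84.6% (34). In the fourth group they were 54.2% (230), 59.9% (203) and 79.2% (6). In the widest group they were 36.0% (362) with both Suz12 and Cbx7 and 44.4% (77) with Suz12 but no Cbx7. In the narrowest group, which holds 293 of the 448 pairs with neither, the median was 100% both with neither and with Suz12 but no Cbx7 (141 pairs), and RYBP was 1128 and 1094 bp wide. In the second and the middle group the peaks with neither subunit had the highest covered share, with a median RYBP width of 1439 and 1662 bp, compared with 1181 to 1358 bp where Suz12 was present.

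A comparison on identical Ring1B peaks was possible where RYBP and a second target each formed a one-to-one pair with the same peak. On 684 Ring1B peaks with RYBP and Cbx7, RYBP covered a median of 49.4% and Cbx7 78.5%, and Cbx7 covered more of the peak in 574 of them (83.9%). The RYBP midpoint was central in 87.7% and the Cbx7 midpoint in 98.7%, and Cbx7 was nearer the Ring1B midpoint in 467. The rank correlation with Ring1B width on these peaks was 0.16 for RYBP and 0.81 for Cbx7. On 1637 Ring1B peaks with RYBP and Suz12, RYBP covered 65.5% and Suz12 96.5%, and the correlations were 0.28 and 0.89. RYBP touched the Cbx7 peak in 678 of 684 cases and the Suz12 peak in 1634 of 1637. Such contact is largely set by geometry, since both peaks touch 1 Ring1B peak and the second target covers most of it. RYBP lay wholly inside the Cbx7 peak in 374 (54.7%) and wholly inside the Suz12 peak in 1008 (61.6%). The midpoints of RYBP and Cbx7 were 256 bp apart at the median, those of Cbx7 and Ring1B 140 bp.

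Several RYBP peaks on 1 Ring1B peak were a feature of wide Ring1B peaks. The 82 Ring1B peaks with at least 2 RYBP peaks had a median width of 4479 bp, compared with 1862 bp for those with 1. This difference is partly built in, since RYBP peaks do not overlap one another and a wider Ring1B peak has room for more of them. Several of the 82, none of them with Cbx7, lay close together on chromosome 6 between 114449120 and 114577873. All 82 overlapped Suz12 and 52 (63.4%) overlapped Cbx7, compared with 80.4% and 34.4% of all 2304 Ring1B peaks paired with RYBP. Those 2304 are narrower. Of the 439 one-to-one pairs in the widest group (median 3767 bp), 362 had Suz12 and Cbx7 and 77 had Suz12 without Cbx7. In that wide group, too, all had Suz12, and the share with Cbx7 was higher than among the 82. On the 82 Ring1B peaks, the RYBP peaks together covered a median of 62.4%. The first and last RYBP midpoints stood at 26% and 75% of the Ring1B width at the median, and in 74 of 82 on opposite sides of the centre. This placement is partly set by geometry, since peaks that do not overlap and cover much of a Ring1B peak must lie apart. The narrowest gap between neighbouring RYBP peaks was 380 bp at the median and under 100 bp in 22, and whether the peak caller divided single stretches there was not tested.

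The Ring1B peak with the most RYBP peaks lay on chromosome 8 from 72403281 to 72413666 (10.4 kb). Its 4 RYBP peaks were 3073, 2008, 1217 and 1132 bp wide and covered 68.8% of it, and Cbx7 covered 37.4%. The last pair of these were separated by 12 bp. On chromosome 11, a Ring1B peak from 118895164 to 118910311 (15.1 kb) held 3 RYBP peaks, with none in its first 6481 bp. On chromosome 16 from 17796026 to 17809053 (13.0 kb), 3 RYBP peaks of 1216, 2387 and 1255 bp were spread from 1323 bp after the start to 1265 bp before the end.

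The opposite case, a RYBP peak spanning neighbouring Ring1B peaks, occurred 13 times, and in 11 of these every gap between the Ring1B peaks was under 200 bp. All 13 RYBP peaks overlapped Suz12 and 5 overlapped Cbx7. Of all 2381 paired RYBP peaks 81.0% overlapped Suz12 and 35.1% Cbx7, and of the whole RYBP list 31.5% and 12.2%. The widest, on chromosome 6 from 114499365 to 114509104 (9739 bp), touched Ring1B peaks of 3953, 2585 and 2227 bp that left gaps of 16 and 2529 bp. The RYBP peak itself was 98.0% covered by 5 Suz12 peaks. A second on chromosome 6, from 88576939 to 88578162 (1223 bp), touched Ring1B peaks of 637, 949 and 739 bp with gaps of 13 and 72 bp. The third, on chromosome 7 from 106529164 to 106530149 (985 bp), touched Ring1B peaks of 831 and 2564 bp that were 86 bp apart. A single Suz12 peak covered 87.4% and 100% of these last RYBP peaks, which thus ran across the small gaps in Ring1B.

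Most RYBP peaks that did not touch Ring1B (4081, 90.9%) lay more than 10 kb from it. The distance expected from the density of Ring1B peaks was not computed. The 4491 unpaired RYBP peaks lay a median of 74.6 kb (71.4 to 78.0 kb) from the nearest Ring1B peak, with quartiles of 28.8 and 168 kb. Only 55 lay within 1 kb (1.22%, 0.942 to 1.59%), 206 within 5 kb (4.59%) and 410 within 10 kb (9.13%). Within 100 kb lay 59.4% and within 1000 kb 98.9%. As a share of unpaired peaks, the other targets were more often just beside Ring1B: 8.77% (7.66 to 10.0%) of 2224 Suz12 peaks and 5.05% (2.84 to 8.81%) of 218 Cbx7 peaks lay within 1 kb. Over the whole lists these near peaks were 55 of 6872 for RYBP, 11 of 2754 for Cbx7 and 195 of 8054 for Suz12. Whether RYBP or Cbx7 has the larger share thus depends on the base. The median distances of unpaired Suz12 and Cbx7 peaks were 60.2 and 139 kb. The unpaired RYBP peaks were found below and above the nearest Ring1B peak in similar numbers, 2276 and 2215. Counted per kb of distance, 55 lay in the first kb, 37.8 per kb from 1 to 5 kb, 40.8 from 5 to 10 kb and 32.9 from 10 to 50 kb. Farther out it was 18.8 per kb from 50 to 100 kb, 3.94 from 100 to 500 kb and 0.394 from 500 to 1000 kb. The count per kb was highest in the first kb and lowest beyond 500 kb. A fall with distance is built into this measure, since a far nearest peak requires all closer sequence to be free of Ring1B. No conclusion about RYBP is therefore drawn from the fall.

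**Figure D5:**
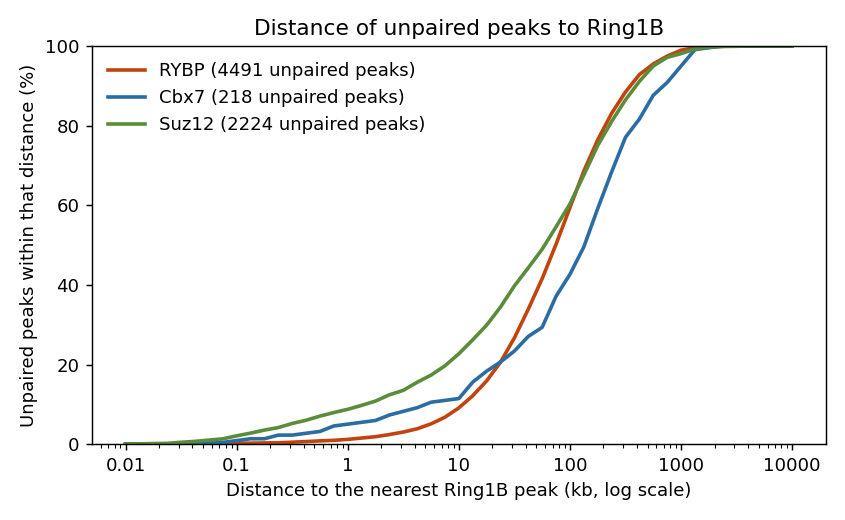
Percentage of unpaired RYBP, Cbx7 and Suz12 peaks that lie within a given distance of the nearest Ring1B peak (closest ends, kb, log scale). At 1 kb the RYBP curve stands at 1.22%, the Cbx7 curve at 5.05% and the Suz12 curve at 8.77%, and at 100 kb RYBP and Suz12 stand at 59.4% and 60.3%.

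Suz12 overlap was more frequent among the few near misses than among distant peaks. Of the 55 unpaired RYBP peaks within 1 kb of Ring1B, 16 overlapped Suz12 (29.1%, 18.8 to 42.1%), and for 13 of these the same Suz12 peak also overlapped the neighbouring Ring1B peak. The share was 16.6% of 151 peaks from 1 to 5 kb (11.5 to 23.3%), 9.31% of 204 from 5 to 10 kb and 4.36% of 4081 beyond 10 kb (3.78 to 5.03%). Among all 4491 unpaired RYBP peaks 5.30% overlapped Suz12. Cbx7 overlapped 5 of the 4491 (0.111%) and none of the 55, which with so few peaks allows a share of up to 5.45% and does not set the near misses apart. Beside 30 of the 55, the neighbouring Ring1B peak carried another RYBP peak, and 3 lay between Ring1B peaks within 1 kb on both sides. The closest, on chromosome 17 from 48112793 to 48113853, began 6 bp after a Ring1B peak of 2544 bp. That on chromosome 9 from 66682422 to 66683445, also 6 bp away, was wholly covered by Suz12. The third, on chromosome 14 from 4120006 to 4121041, ended 19 bp before a Ring1B peak.

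RYBP peaks were slightly wider where they touched or lay near Ring1B than farther away. Paired RYBP peaks had a median width of 1305 bp (1283 to 1332 bp) and unpaired ones 1181 bp (1167 to 1191 bp). A wider peak shares 1 bp with Ring1B more easily, and how much of the difference this makes was not tested. By distance the medians were 1273 bp within 1 kb (55 peaks), 1222 bp from 1 to 5 kb (151), 1244 bp from 5 to 10 kb (204), and between 1102 and 1187 bp beyond. No intervals were computed for these medians by distance. Distances to other targets were of a like order for Suz12 and longer for Cbx7, which has fewer peaks: unpaired RYBP peaks lay a median of 61.8 kb from Suz12 and 257 kb from Cbx7. They were 40.6 kb from the next RYBP peak, compared with 47.5 kb for the paired ones. The most distant RYBP peaks lay on chromosome 12 from 40949393 to 40950492, 3.11 Mb from Ring1B, on chromosome 12 from 40764284 to 40765389, 2.93 Mb away, and on chromosome 2 from 87277517 to 87278417, 2.5 Mb away. None of the 3 overlapped Suz12 or Cbx7.

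Most Ring1B peaks without RYBP also lay more than 10 kb from RYBP, with 694 (14.8%) nearer. Of the 4678, 3 on chromosome Y had no RYBP peak on their chromosome, and the other 4675 lay a median of 93.8 kb from the nearest (quartiles 23.9 and 363 kb), with 107 (2.29%) within 1 kb. Unpaired Ring1B peaks were narrower than paired ones, with a median of 1530 compared with 1905 bp. The difference was larger for Ring1B peaks without and with Cbx7 (1286 compared with 2668 bp) or Suz12 (772 compared with 1897 bp), so it is not particular to RYBP.

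The geometry and the distances were also read chromosome by chromosome. Over 19 autosomes the median covered share ran from 65.0% on chromosome 2 to 81.5% on chromosome 14, the central share from 82.2% on chromosome 5 to 90.8% on chromosome 9, and the ratio of widths from 0.68 to 0.88. The median distance of unpaired RYBP peaks ran from 40.7 kb on chromosome 14, with 272 Ring1B peaks, to 104 kb on chromosome 17, with 269. On chromosome 17, 1 window of 1 Mb held 52 of the 366 RYBP peaks, only 2 of them paired. The median distance on chromosome 17 without that window was not computed. The share of RYBP peaks paired ran from 25.1% on chromosome 16 to 46.3% on chromosome 1. On chromosome X, 6 of 24 RYBP peaks were paired (25%, 12.0 to 44.9%), and the 18 unpaired ones lay between 89.5 and 544 kb from the nearest of 225 Ring1B peaks.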

How the data were processed

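ChIP-seq peak lists of 1 library per target were used as deposited by the authors. Their values are start and end positions in bp; no header states more. The submitters' processing notes name build mm9 and, with no roles, MACS 1.3.7.1 and Bowtie 0.12.7. Control, threshold and pooling: not given in the sources used here. Whether starts count from 0 or 1 is not stated, so positions are printed as listed and width is end minus start. Peak edges depend on fragment length, depth and threshold, so widths and offsets between lists carry those differences.

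Samples were grouped by the target in their description, and each list was assigned to the only sample of its target. Pairs, offsets and distances were computed with pandas 2.3.3 and numpy 2.4.6 (Python 3.11.15), and intervals with SciPy 1.17.1, after the functions were checked on simulated peaks. Figures used matplotlib 3.10.9. Distance is the gap between closest ends. No statistical test was run. The coordinates of the gene table at hand are on another build, GRCm38 (its last gene on chromosome 7 ends at 145324059, and the lists reach 152494629), so no gene or sequence was read by position.

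Named peaks are, 3 for each: the Ring1B peaks with most RYBP peaks, the widest inside 1 RYBP peak, the widest of one-to-one pairs, the pairs closest to the medians, the RYBP peaks touching most Ring1B peaks, and the unpaired RYBP peaks with the smallest and largest gaps. Measures, rules and alternatives were chosen with earlier results of these data known. The gene lists of the plan were not used, as peaks have no genes here. Alternatives covered overlap, merging, width, X and Y, and position limits.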

Additional observations from a re-analysis of the deposited data

How the results depend on the processing

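Over 8 results and 52 alternative settings, 39 values stayed within the 95% interval of the reported value and 13 moved outside it. No test was run, so no call could change. Keeping in each list only peaks at or above its median width moved 6 of the 8 results: 28.0% of RYBP peaks and 26.7% of Ring1B peaks were paired, the median covered share was 63.3%, RYBP was wholly inside Ring1B in 67.0% of pairs, the median width ratio was 0.66 and the median distance of unpaired RYBP peaks was 146 kb, compared with the 74.6 kb reported; this setting leaves fewer Ring1B peaks to be near. Merging peaks within 1 kb gave 35.9% of Ring1B peaks paired, 84.7% of midpoints central and 98.3% of paired Ring1B peaks with 1 RYBP peak. Pairing peaks within 1 kb gave 34.5% of Ring1B peaks paired and 94.5% with 1 RYBP peak. A narrower central zone, the middle 1 of 3 equal parts of the Ring1B peak in place of 25 to 75%, held 71.8% of midpoints. Allowing an overhang of 100 bp at each end, a setting chosen after the data were seen, as was leaving out the 2 windows of 1 Mb most crowded with RYBP peaks, put RYBP inside Ring1B in 63.0% of pairs. Overlap of 50% of the shorter peak, leaving out X and Y, the crowded windows or the widest 1% of Ring1B peaks, one-to-one pairs alone and midpoint distances moved none of the results they were applied to. Without read counts, precision is limited by unknown depth and by edges that depend on the caller. No paired analysis was possible because each target has 1 library.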

Other observations

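The 1-Mb windows with the most RYBP peaks held them in different ways. On chromosome 17 from 30000000 to 31000000, 2 of 52 RYBP peaks touched Ring1B, and on chromosome 6 from 114000000 to 115000000, 24 of 48 did. In the chromosome 6 window 5 of those 24 belonged to one-to-one pairs, so the others shared a Ring1B peak with another RYBP peak or touched more than 1 Ring1B peak.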
